A study of Drosophila melanogaster with 2 samples.

Results

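Oxidative phosphorylation is carried out in the inner mitochondrial membrane by 5 protein complexes. Complexes I and II feed electrons from NADH and succinate to ubiquinone, complexes III and IV pass them by way of cytochrome c to oxygen, and complex V, the ATP synthase, uses the resulting proton gradient to make ATP. Most of the subunits are encoded in the nucleus, and a few remain on mitochondrial DNA. Many of the Drosophila genes have a second copy named with the suffix L, and such copies of mitochondrial genes are known mostly for expression in the testis.

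The genes were taken by symbol from the Ensembl annotation of the BDGP6 assembly: protein-coding genes beginning with ND- (complex I), Sdh (II), UQCR- (III), COX (IV) or ATPsyn (V). This gave 88 of the 13968 protein-coding genes on the main chromosome arms, of which 64 are canonical genes and 24 are suffix-L paralogues. The canonical genes number 34 for complex I, 5 for II, 6 for III, 8 for IV and 11 for V. One of those counted under complex II, Sdhaf3, is an assembly factor and not a subunit. Of the paralogues, 4 are copies of a gene whose current symbol lacks the prefix, namely COX6AL and COX6AL2 of levy, COX6CL of cype, and ATPsynepsilonL of sun.

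Binding was measured by chromatin immunoprecipitation and sequencing (ChIP-seq) of cropped (crp), a basic helix-loop-helix leucine zipper transcription factor related to vertebrate AP-4, which recognises the palindromic E-box CAGCTG. All samples came from 1 group: whole embryos of a single transgenic line that carries crp with green fluorescent protein (GFP) fused to its C terminus, of both sexes, 0 to 16 hours old, precipitated through the GFP tag. There are 2 biological replicates, numbered 1 and 3, and no second condition. A control experiment named in the labels was not analysed here, and in whole embryos strong binding in few cells and weak binding in many cannot be told apart. The authors listed 30000 candidate peaks for each replicate and 26505 for the pooled data. Their irreproducible discovery rate (IDR) procedure left 1122 peaks, with pooled signal values between 61.3 and 770.4. The signal value is the authors' deposited score for each peak. Its scale is not stated in the sources used here, and the read depth behind it is unknown. A gene was counted as bound when the summit of an IDR peak, the point of highest signal in the peak, lay within 1000 bp of one of its annotated transcription start sites (TSSs). Distances to a gene's TSS are to the nearest of its annotated TSSs, which is not always the 5′-most.

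Cropped summits were found at many of the canonical genes and at no paralogue. An IDR summit lay at 23 of the 88 genes (26.1%, Wilson 95% interval 18.1 to 36.2%), beside 1550 of all 13968 protein-coding genes (11.1%). All 23 were canonical, which is 35.9% of the 64 canonical genes (25.3 to 48.2%). The intervals cover counting error only, and genes along a genome are not independent replicates. Candidates of any strength in the pooled list were present at 57 of the 88 genes (64.8%), beside 50.7% of all genes. Among genes with a candidate, 23 of 57 members (40.4%) also had an IDR summit, beside 21.9% of all such genes. No test of the gene list was made.

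By complex, an IDR summit was present at 15 of 34 canonical genes of complex I (44.1%, 28.9 to 60.5%), 1 of 5 of complex II (20%, 3.62 to 62.4%), 1 of 6 of complex III (16.7%, 3.01 to 56.4%), 2 of 8 of complex IV (25%, 7.15 to 59.1%) and 4 of 11 of complex V (36.4%, 15.2 to 64.6%). The intervals of the complexes overlap one another, and those of complexes II, III and IV include the 11.1% of all genes. The share outside complex I was 26.7% (8 of 30 genes, 14.2 to 44.4%). The shares with a pooled candidate lay closer together, between 62.5% for complex IV and 80.0% for complex II.

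**Figure D1:**
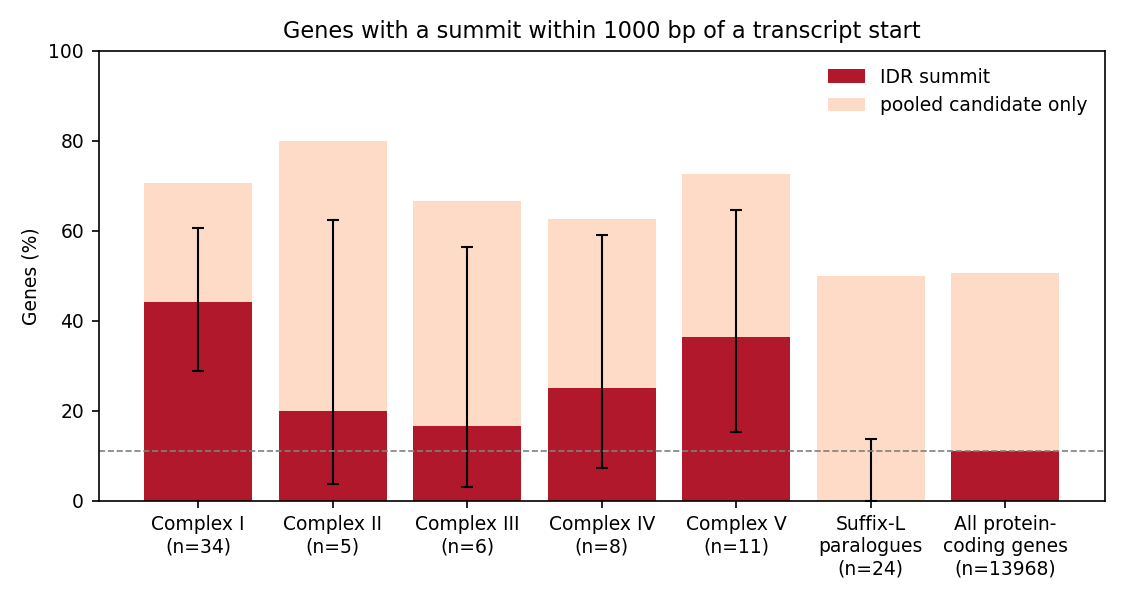
Share of genes (%) with a summit within 1000 bp of a transcript start, for the canonical genes of each complex, the suffix-L paralogues and all protein-coding genes. Dark bars are genes with an IDR summit, light bars those with a pooled candidate only, error bars are Wilson 95% intervals of the IDR share, and the dashed line marks the 11.1% of all genes; complex I reaches 44.1% and the paralogues stand at 0 with a candidate share of 50%, near the 50.7% of all genes.

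Complex I, the NADH:ubiquinone oxidoreductase, had the most bound genes. Its strongest peak was at ND-B18, the counterpart of mammalian NDUFB7 in the membrane arm, with a pooled signal of 238.0, 138.7 in replicate 1 and 98.0 in replicate 3. It ranked 82 of the 1122 IDR peaks. Its summit lay 39 bp upstream of the nearer of 2 annotated TSSs and downstream of the other, inside the gene. ND-19, counterpart of NDUFA8, had 210.0 (110.1 in replicate 1 and 101 in replicate 3), with its summit 4 bp from the TSS. In the single-replicate lists of 30000 candidates, ND-B18 ranked 66 in replicate 1 and 134 in replicate 3, and ND-19 ranked 158 and 122. Of the other membrane-arm genes, ND-B17 (NDUFB6) had a pooled signal of 160.9, and its replicate values were 97.8 (replicate 1) and 64.2 (replicate 3). ND-PDSW (NDUFB10) had 153.3, with 102.1 in replicate 1 and 48.0 in replicate 3, a log2 ratio of replicate 3 to replicate 1 of -1.09. ND-ASHI (NDUFB8) had 137.9, with 77.0 and 53.2 in replicates 1 and 3. These genes were all higher in replicate 1.

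The core subunits of complex I, those conserved from bacteria, were also described by their place in the enzyme. The NADH-oxidising tip, known as the N module, has 3 core subunits, and all had an IDR summit. ND-24 (NDUFV2), an iron-sulphur subunit, had a signal of 155.0, with 82.5 in replicate 1 and 72.9 in replicate 3. ND-75 (NDUFS1), the largest iron-sulphur subunit, had 116.7, with 73.6 and 51.8 in replicates 1 and 3. ND-51 (NDUFV1), which binds the flavin that accepts electrons from NADH, had 98.1, with 47.3 and 52.7 in replicates 1 and 3. Of the ubiquinone-reducing Q module, 3 core subunits are described here, and none had an IDR summit. ND-20 (NDUFS7) had a candidate of signal 32.3, while ND-30 (NDUFS3) and ND-23 (NDUFS8) had no pooled candidate. With accessory subunits of clear placement in mammals added, the counts were 5 of 7 in the N module and 1 of 5 of the genes described in the Q module, beside 35.9% of all canonical genes and 11.1% of all genes. On so few genes the Q module counts, 0 of 3 and 1 of 5, are near those shares. This division was chosen after the values were seen, on few genes, and was not tested.

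The accessory N module subunits ND-18 (NDUFS4), required for the assembly of the tip in mammals, and ND-13A (NDUFS6) had signals of 116.3 and 94.4. ND-18 had 67.8 in replicate 1 and 53.4 in replicate 3, and ND-13A 58.2 and 34.9. A further accessory subunit of this module, ND-B17.2 (NDUFA12), fell just short of the IDR set with a pooled signal of 60.0 (41.9 in replicate 1 and 22.5 in replicate 3), its summit 28 bp upstream of the TSS. The other unbound gene counted in the N module, ND-B8 (NDUFA2), had no pooled candidate. ND-13B (NDUFA5) was the bound gene of the Q module, with 107.7 (64.3 in replicate 1 and 43.5 in replicate 3). The remaining bound genes of complex I were ND-15 (115.3), ND-B14.7 (76.3), ND-B15 (70.2) and ND-42 (66.9), accessory subunits of the membrane arm in mammals. The replicates ordered some of them differently: ND-42 had 23.6 in replicate 1 and 46.1 in replicate 3, whereas ND-B15 had 43.7 and 28.4. ND-15 had 63.2 in replicate 1 and 55.3 in replicate 3, and ND-B14.7 had 42.5 and 30.9. No pooled candidate was present at 10 canonical genes: ND-23, ND-30, ND-ACP, ND-AGGG, ND-B14, ND-B14.5B, ND-B16.6, ND-B8, ND-MLRQ and ND-MNLL. The mammalian counterpart of ND-MLRQ is a subunit of complex IV.

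**Figure D2:**
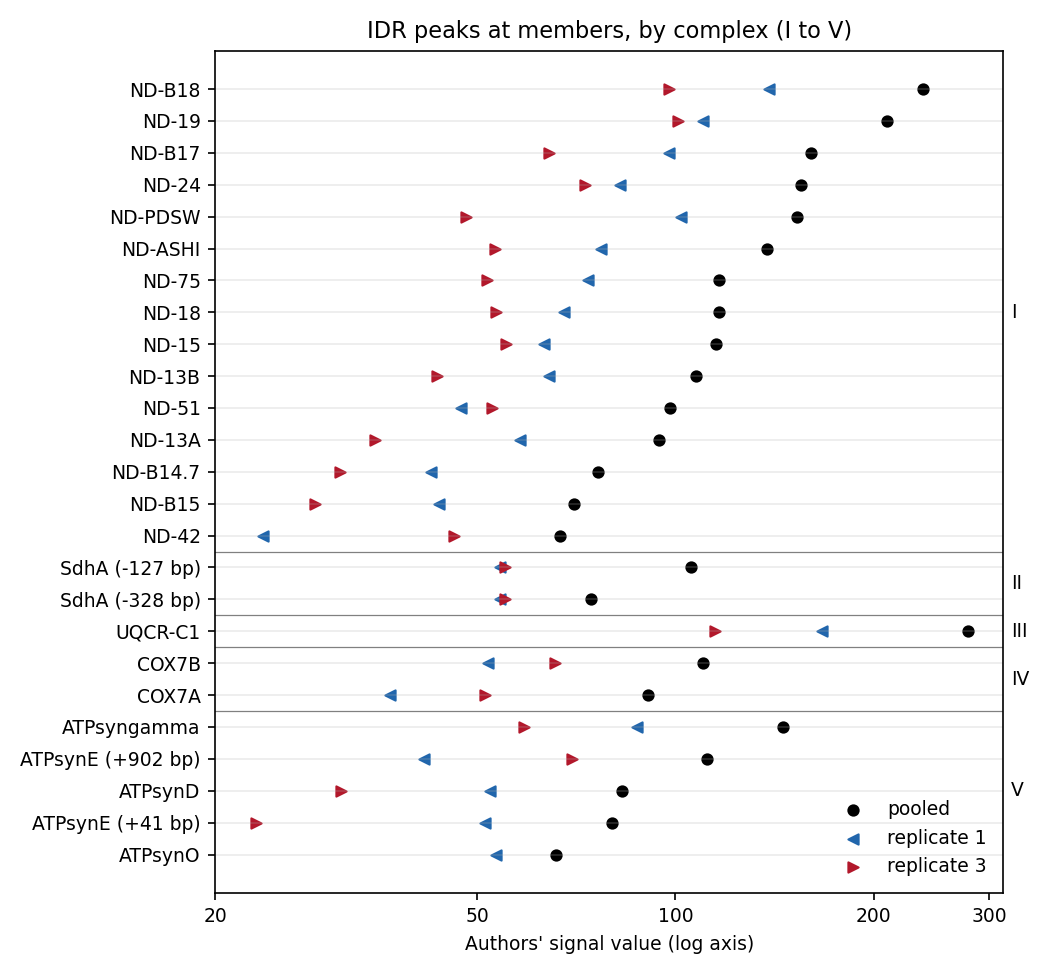
The authors' signal value (log axis) of the 25 IDR peaks at the 23 bound genes, by complex and in descending pooled signal. Circles are the pooled list and triangles the strongest overlapping candidate of replicate 1 (pointing left) and replicate 3 (pointing right); UQCR-C1 is highest at 278.2, ATPsynO lowest at 65.8 with no replicate 3 candidate, and genes with more than 1 summit carry the distance to the TSS.

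Most of the peaks held the E-box of cropped near the summit. The following stretches of the RefSeq Release 6 genome, which has the dm6 coordinates of the peaks, show the CAGCTG copies, in capitals, at 8 bound genes, among them the strongest of complexes I and III and the weakest of all, ATPsynO. COX7A and ND-24 are shown because they have unbound paralogues. Each copy is given with 12 bases on either side and read 5′ to 3′ on the strand of the gene.
UQCR-C1 (chr3R:14890207-14890236, plus strand): attttccacgaaCAGCTGactggccgcagc
ND-B18, upstream copy (chrX:15063823-15063852, plus strand): attgcaatacacCAGCTGttcgagcagtgc
ND-B18, downstream copy (chrX:15063881-15063910, plus strand): caacgctgtcagCAGCTGtcacttgcaaca
ND-B17 (chr2L:15751059-15751088, minus strand): cactggcggcaaCAGCTGttctgtttttcc
ND-24 (chrX:17632306-17632335, plus strand): tccgccgaaaatCAGCTGtaagcggtgctt
ND-PDSW (chr2L:3466137-3466166, plus strand): cactacctcgaaCAGCTGatttcagtgctc
ND-75 (chrX:8251689-8251718, minus strand): attgcgattgacCAGCTGtcaacgcggcag
COX7A (chr3R:8340996-8341025, minus strand): atctccagttgtCAGCTGtcatatttcaga
ATPsynO (chr3R:15265608-15265637, plus strand): tagccctggtcaCAGCTGagatttttagct
At UQCR-C1 the centre of the site lay 4 bp from the summit and 10 bp upstream of the TSS. At ND-24 it lay 1 bp upstream of the nearer of 2 annotated TSSs and downstream of the other, inside the gene. At ND-B17 it lay 5 bp downstream of the TSS.

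Of the 25 peaks at members, 17 held a whole CAGCTG no more than 50 bp from the summit (68.0%, 48.4 to 82.8%), beside 504 of 1028 other IDR peaks at promoters (49.0%, 46.0 to 52.1%). The interval of the members includes the share of the others. Of promoter candidates outside the IDR set, the site was present in 3 of 63 at members (4.76%) and in 486 of 6974 elsewhere (6.97%). In complex I, 12 of 15 peaks had it, the exceptions being ND-18, ND-51 and ND-ASHI. In complex V 3 of 5 had it, in complex IV COX7A but not COX7B, and at SdhA neither summit. The 18 copies at members had a median distance of 18 bp from the summit, in a search limited to 50 bp. With a limit of 25 bp, 40% of the peaks held the site, and the other promoter peaks were not counted at that limit. ND-B18 was the only member whose peak held a pair of copies. AACAGCTG or ATCAGCTG, on either strand, was present at 12 of the 18 copies (66.7%), beside 84.6% of 573 copies at the other promoter peaks. The 18 copies are few, and this difference was not tested.

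From 250 bp before to 50 bp after the 5′-most TSS, CAGCTG occurred on either strand in 16 of the 23 bound canonical genes (69.6%, 49.1 to 84.4%), 3 of the 41 unbound canonical genes (7.32%, 2.52 to 19.4%) and 2 of the 24 paralogues (8.33%, 2.32 to 25.8%). Among all protein-coding genes it occurred in 62.6% of those with an IDR summit, 12.1% of those without, and 17.7% overall. The intervals of the unbound members and of the paralogues include the 12.1% of unbound genes. The window follows the 5′-most TSS, which is not always the TSS nearest the summit, so these counts do not always describe the bound start. ND-15 was counted as a match, but its IDR summit was no longer assigned to it with the 5′-most TSS alone. ND-B18, ND-24 and ND-13A were not counted, although their peaks held CAGCTG near the summit. A match describes the sequence and does not show that the site is used.

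**Figure D3:**
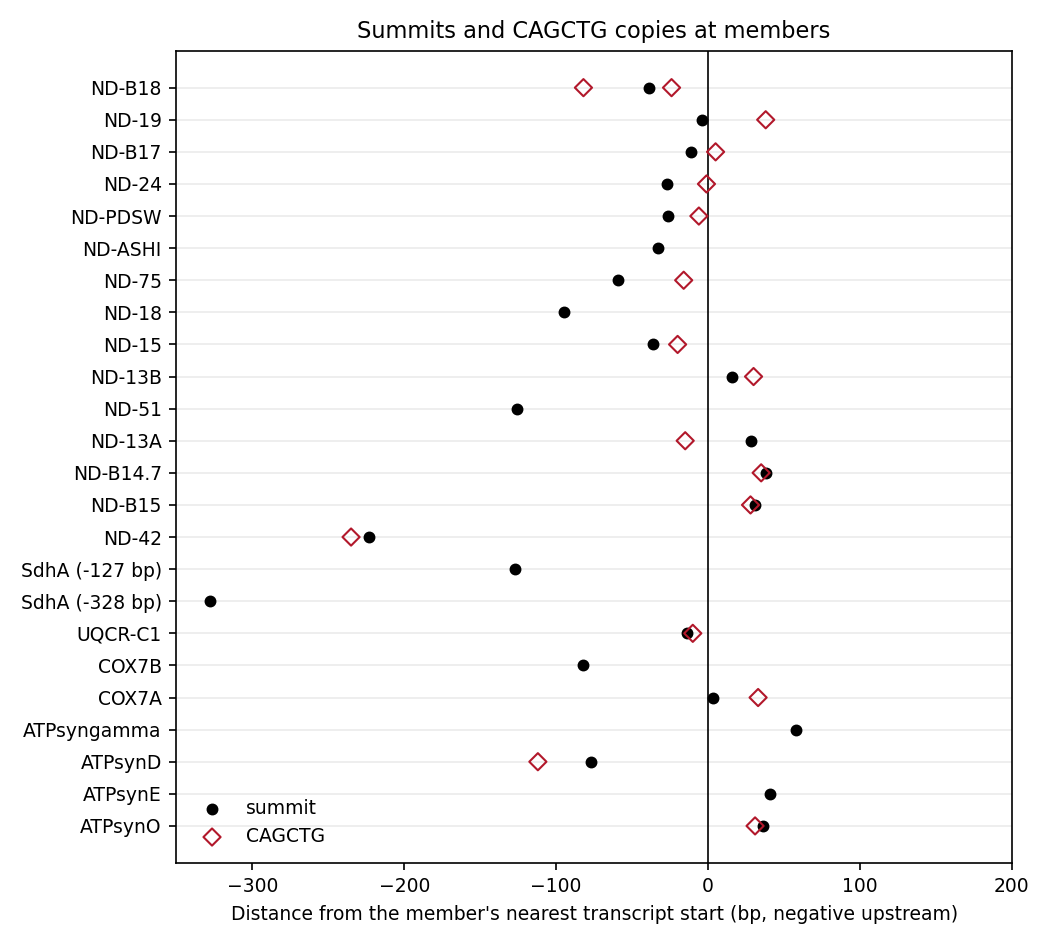
Position of IDR summits (filled circles) and of CAGCTG copies within 50 bp of them (open diamonds) at the bound genes, as the distance in bp from the nearest transcript start of the gene, negative upstream. Most summits lie within 100 bp of the start, and 8 of the 25 peaks have no copy; the summit 902 bp downstream of the ATPsynE start is not drawn.

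Complex II, succinate dehydrogenase, links the tricarboxylic acid cycle to the respiratory chain. SdhA, its flavoprotein, was the bound gene, with a pair of neighbouring summits 127 and 328 bp upstream of the TSS and signals of 105.5 and 74.4. Both summits fell on the same replicate candidates, of 54.2 in replicate 1 and 55.2 in replicate 3. Sdhaf3, which helps to mature the iron-sulphur subunit, had a candidate of 44.0 centred 7 bp from its TSS. SdhC and SdhD, the membrane anchors, had candidates of 23.1 and 22.2, and SdhB, the iron-sulphur subunit, had none in any list.

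Complex III gave the strongest peak of all members. UQCR-C1, a core subunit, had a pooled signal of 278.2, with 167.3 in replicate 1 and 115.1 in replicate 3, at rank 41 of 1122. The summit lay 14 bp upstream of the UQCR-C1 TSS and 12 bp from that of the neighbouring gene CycC, which encodes a cyclin of the Mediator complex, so that with each summit given to its nearest gene alone complex III had 0 bound genes. UQCR-C2, its partner in the core, had a candidate of 27.0 at 5 bp from the TSS (15.2 in replicate 1 and 16.7 in replicate 3), and CAGCTG lay within 50 bp of that summit. UQCR-14 and UQCR-6.4 each had a candidate of 19.0, close to the lowest value of the pooled list, 18.4, while UQCR-11 and UQCR-Q had none.

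Complex IV, cytochrome c oxidase, had an IDR summit at 2 small nuclear subunits. COX7B had 110.3, with 51.9 in replicate 1 and 65.6 in replicate 3, and COX7A had 90.9, with 36.8 and 51.5. Both were higher in replicate 3, unlike most of complex I. COX7C, COX5A and COX5B had candidates between 21.0 and 24.3. COX4, COX6B and COX8 had no pooled candidate.

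In complex V the bound genes covered the central stalk, the peripheral stalk and the membrane part. ATPsyngamma, the rotating shaft, had a signal of 145.8, with 87.6 in replicate 1 and 58.8 in replicate 3. ATPsynD and ATPsynO, of the peripheral stalk, had 82.9 and 65.8. ATPsynD had 52.2 in replicate 1 and 31.1 in replicate 3. ATPsynO, also called OSCP, had 53.5 in replicate 1 and no overlapping candidate in replicate 3, the single such case among the 1122 IDR peaks. ATPsynE, a membrane subunit that in yeast and mammals takes part in dimer formation, had 1 summit 41 bp downstream of its TSS (80.2, with 51.3 in replicate 1 and 23.1 in replicate 3). A second summit within its window (111.6, with 41.5 in replicate 1 and 69.8 in replicate 3) lay 902 bp downstream and 81 bp from the TSS of the DNA repair gene spn-B. The catalytic beta subunit, ATPsynbeta, lies on chromosome 4, where 3.75% of genes had an IDR summit, and had a candidate of 22.2. ATPsyndelta, ATPsynB and ATPsynCF6 had candidates between 20.4 and 25.1, and ATPsynC, ATPsynF and ATPsynG had none in any list. With the 1122 strongest candidates of replicate 3 in place of the IDR set, that is without replicate 1, 2 of the 11 genes were bound, and ATPsynD and ATPsynO were lost.

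None of the 24 suffix-L genes had an IDR summit (Wilson interval 0 to 13.8%, beside 11.1% of all genes), so the absence by itself is within counting error of the genome-wide share. A pooled candidate was present at 12 of them (50%, beside 50.7%). The bound genes ND-24, ND-51, SdhA and COX7A have 6 paralogues between them. ND-24L, ND-51L2 and SdhAL had no pooled candidate, against 155.0, 98.1 and 105.5 at ND-24, ND-51 and SdhA. ND-51L1 had a candidate of 29.6, COX7AL one of 18.6 and COX7AL2 one of 27.3. COX7AL lies beside COX7A on arm 3R, and its candidate was 893 bp downstream of its TSS and nearer to DppIII.

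The highest candidates of the paralogues were at COX6AL2 (46.6, with 15.5 in replicate 1 and 28.1 in replicate 3) and COX4L (42.7, with 14.9 and 26.7). Both lay inside the gene, 300 and 276 bp downstream of the TSS, and both were below the highest pooled signal outside the IDR set, 61.1. The others with a candidate were UQCR-11L (31.3), COX7CL (24.3, a summit shared with COX7C), ATPsynCF6L (24.1), COX6AL (23.1), COX5BL (20.4), ATPsynepsilonL (19.9) and SdhCL (18.6). Those with none included ND-20L, ND-B14.5AL, SdhBL, UQCR-14L, UQCR-6.4L, COX6CL, ATPsynGL and ATPsynbetaL. The summit was within 200 bp of the gene's own TSS in 1 of the 12 paralogues, COX6AL, and in 10 of the 22 canonical genes with a candidate only. CAGCTG was within 50 bp of the strongest summit in 0 of the 12 paralogues and 3 of the 22 canonical genes. Neither the distances nor the sites were counted in this way over all genes with a candidate only. The contrast between paralogues and canonical genes was not tested.

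Of the 41 canonical genes outside the IDR set, 22 had a pooled candidate and 19 had none, 9 of these in no list at all. The 22 candidates had a median signal of 23.7 and ran from 19.0 to 60.0, and 11 of them overlapped a candidate in each replicate. In complex I the highest after ND-B17.2 were ND-B14.5A (42.2, at 274 bp from the TSS) and ND-MWFE (38.0, at 476 bp and nearer to TppII). The members just inside the IDR threshold were ATPsynO at 65.8 and ND-42 at 66.9, and those just outside were ND-B17.2 at 60.0 and COX6AL2 at 46.6.

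The strength of the peaks at members was ordinary for the IDR set. Their pooled signal had a median of 110.3, beside 114.0 for the other 1028 IDR peaks at promoters, and 3, 10, 6 and 6 of them fell in the 4 ranges of rank of the IDR list, from the strongest to the weakest. The median distance from the summit to the nearest TSS was 33 bp, beside 49 bp. By annotation 12 of the 25 summits lay outside any protein-coding gene, beside 589 of the other 1028. Another 12 lay in a 5′ UTR, beside 274 of the other 1028, a difference that was not tested. The last, at SdhA, lay in the 3′ UTR of the neighbouring gene cer. None was in an intron, where 139 of the other 1028 lay. Bound canonical genes were 5 of 12 on arm 2L (beside 12% of all genes there), 4 of 11 on 2R (12.1%), 2 of 13 on 3L (11.1%), 7 of 14 on 3R (12%), 0 of 2 on chromosome 4 (3.75%) and 5 of 12 on X (7.74%). On 3L and chromosome 4 the counts are near the share of all genes.

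Many of the promoters were shared. TSSs of genes on both strands lay within 1000 bp of 18 of the 25 summits (72.0%, 52.4 to 85.7%), beside 56.4% of the other promoter peaks, a share within the members' interval. More than 1 gene had a TSS in that window at 22 of the 25 summits (88.0%, 70.0 to 95.8%), beside 60.4%. A summit close to several genes has more chances of counting for a member, and the effect of this on the share was not tested. For 18 of the 25 summits the nearest TSS was that of the member. Of these 18 summits, 15 (83.3%) had more than 1 gene in the window. With each summit given to its nearest gene alone, 17 of the 88 genes (19.3%) were bound, beside 7.37% of all genes, and UQCR-C1, ND-PDSW, ND-51, ND-15, ND-42 and ATPsynD were no longer counted. The gene nearest to the ND-PDSW summit was msl-2, of the dosage compensation complex, and that nearest to the ND-15 summit was Pus10. Some partners also act in mitochondria, but such partners were not counted, either here or at the other promoter peaks. ND-ASHI shared its summit with Fum1, a fumarase gene, ND-42 with Cchl, which encodes the lyase that attaches haem to cytochrome c, and ATPsynD with mRpL55, a mitochondrial ribosomal protein gene. Which gene of such a pair the bound factor acts on cannot be told apart by position.

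Of the 24 member peaks with a candidate in each replicate, 17 had the higher signal in replicate 1 (70.8%, 50.8 to 85.1%), beside 65.0% of the other promoter peaks. On the log2 scale, replicate 3 over replicate 1 had a median ratio of -0.48 at members, with a standard deviation (SD) of 0.53 over peaks, beside -0.19 (SD 0.49) at the other promoter peaks. The difference between these medians was not tested. In complex I 13 of 15 peaks were higher in replicate 1, the exceptions being ND-51 and ND-42, and in complexes II and IV all 4 were higher in replicate 3, the 2 at SdhA being 1 pair of candidates. The largest imbalances were at the ATPsynE summit 41 bp from the TSS, with a log2 ratio of -1.15, ND-PDSW (-1.09) and ND-42 (0.97). Across the 24 peaks the signals of the replicates had Pearson's r = 0.776 and Spearman's rho = 0.566, beside 0.863 and 0.762 across the 1097 other IDR peaks. These describe peaks that share a library and a selection for high pooled signal.

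**Figure D4:**
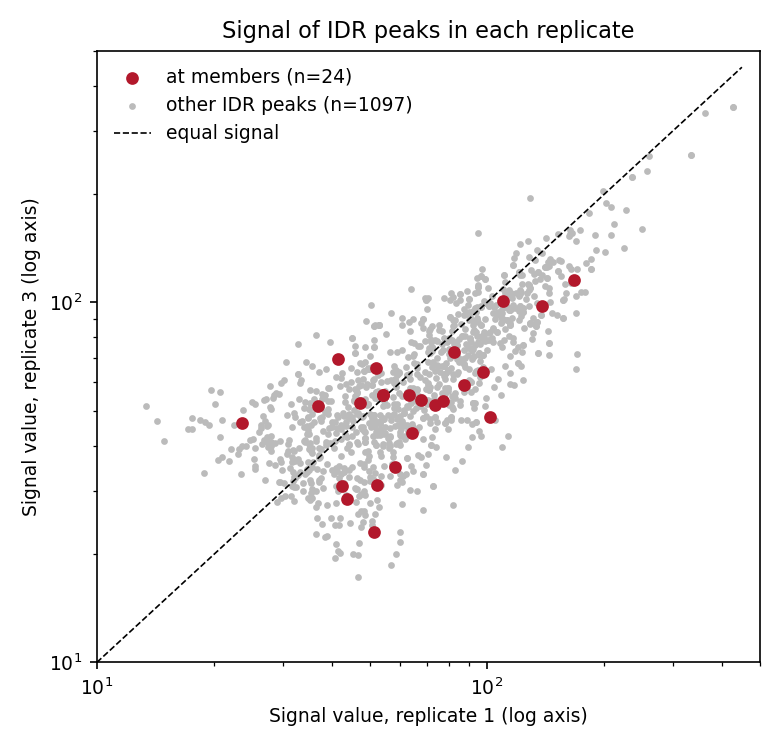
Signal value of each IDR peak in replicate 1 and replicate 3 (log axes), as the strongest overlapping candidate in each list. The 24 peaks at members with a candidate in both lists are dark and the 1097 other IDR peaks pale; 17 of the 24 lie below the dashed line of equal signal, and they span the middle of the range.

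Other genes of the pathway, from a list of 39 symbols of which 38 matched the annotation, had an IDR summit in 12 cases (31.6%), beside 11.1% of all genes. Among these 38 genes are 9 subunits and electron carriers, which lack the symbol prefixes and are left out of the shares by complex. Of these 9, 1 had an IDR summit (11.1%, equal to the share of all genes). It was ox, a small subunit of complex III (125.4, with 86.1 in replicate 1 and 36.3 in replicate 3), at a summit nearer to Dgkepsilon. Cyt-c1 and RFeSP, the catalytic cytochrome and iron-sulphur subunits of complex III, had candidates of 50.1 and 19.96. The alpha subunit of the ATP synthase, blw, and cytochrome c itself, Cyt-c-p, had no pooled candidate. Of 5 assembly factors 4 had an IDR summit. CIA30, a complex I assembly factor, had 194.2 (106.3 in replicate 1 and 92.8 in replicate 3), nearer to CG7601, and sicily, of the same role, had 145.5 (81.0 and 65.6). Surf1, which acts on complex IV, had 120.5, at a summit nearest to Uqcc1, a complex III assembly gene by its mammalian counterpart, and Sirup, which acts on complex II, had 87.8. Scox, a copper chaperone of complex IV, had no pooled candidate.

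In the tricarboxylic acid cycle and pyruvate dehydrogenase group 6 of 15 genes had an IDR summit, beside 11.1% of all genes. The strongest were ScsbetaG, a subunit of succinyl-CoA synthetase (257.1, with 118.4 in replicate 1 and 137.3 in replicate 3, nearer to Sras), and Idh3g (205.8) and Idh3b (161.0) of the NAD-dependent isocitrate dehydrogenase. Fum1 (137.9, the ND-ASHI summit), Idh (74.0) and Scsalpha1 (64.6) completed the group. Citrate synthase (kdn), Mdh2 and Idh3a had no pooled candidate. None of the 4 carriers of ADP, ATP and phosphate had an IDR summit, and of 5 regulators mtSSB, the single-stranded DNA-binding protein of mitochondrial DNA, had one (79.7). The regulators ewg, Ets97D, srl and TFAM did not. The counts for carriers and regulators are near the 11.1% of all genes.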

How the data were processed

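Peak lists of 2 biological replicates (1 and 3) of a single crp-GFP group were used. Per the labels, chromatin was sonicated to fragments of 200 to 800 bp. Per the README files deposited with the samples, the authors made each replicate's candidate list from its alignment and a control, a pooled list from both, and the optimal IDR list from these; which aligner, peak caller and IDR threshold they used is not given in the sources used here. The signal value, the distance to the summit and the −log10 q value of each peak are the authors' deposited values; the last was not used. The dm3 lists were not used. All coordinates are dm6, and every peak end fell within the reference arm.

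Summits were assigned to transcript starts of the Ensembl BDGP6 annotation within 1000 bp. A replicate's value at a peak is its strongest candidate overlapping the interval by at least 1 bp. Offsets of sites are to the centre of the hexamer. Suffix-L genes were those whose symbol without L and digit is another gene's symbol or synonym. Python 3.11.15, NumPy 2.4.6, pandas 2.3.3, SciPy 1.17.1 and Matplotlib 3.10.9 were used, and assignment and motif search were tested on simulated data. No list test or p-value was computed. The genes named are all bound members, the paralogues, the 3 strongest unbound per complex, and bound genes of the pathway list, of whose 39 symbols Tfb2M matched no gene; genes named beyond these were chosen after their values were seen. The result of 1 gene and of its paralogue is counted but not reported by name here. Members and lists were chosen with earlier results of these data known. Alternatives were other windows, start sites, nearest-gene assignment, stronger peaks, motif distances and single replicates.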

Additional observations from a re-analysis of the deposited data

How the results depend on the processing

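No suffix-L paralogue was bound in any of the 8 alternatives run, beside 6.49% to 13.1% of all genes. The alternatives reuse the same 2 replicates, so they are not separate evidence for the absence. The 23 bound genes of 88 became 22 with a window of 200 bp (beside 8.66% of all genes under the same setting), 23 at 500 bp (10.2%), 24 at 2000 bp (13.1%), 22 with the 5′-most TSS (10.6%) and 17 with the nearest gene alone (7.37%). The 561 IDR peaks of higher signal, fewer by construction, left 13 bound genes in all (beside 6.49% of all genes), 9 in complex I, 0 in II, 1 in IV and 2 in V, with a median signal of 145.8. Complex III had 2 bound genes at 2000 bp, with UQCR-Q added, and 0 with the nearest gene alone. Without replicate 1 or 3, by the 1122 strongest candidates of the other replicate, 19 and 23 genes were bound (beside 10.7% and 11.2% of all genes), of which 19 and 22 were among the 23; without replicate 3, ND-42 was lost and ND-B17.2 gained. The count for complex V ran from 2 to 4, ATPsynD and ATPsynO being lost without replicate 1, as were ND-B14.7 and ND-B15. A pooled candidate was present at 36 genes with the 200 bp window, against 57. CAGCTG was present in 40% of member peaks within 25 bp of the summit and in 84.0% within 100 bp. These counts were made for members alone, so they cannot be set beside all genes or the other promoter peaks. With depth unknown, a gene without a candidate is not shown to be unbound.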
